A study of Mus musculus with 2 samples.

Results

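The cells of the murine retinal pigment epithelium (RPE) were examined here for transcripts of 9 genes that are best known from photoreceptors: Rom1, Slc24a1, Abca4, Rpgrip1, Sag, Gnat1, Pdc, Pde6g and Prph2. They are 9 of all 27998 genes of the deposited matrices, and each symbol stood on a single row. The 9 genes were selected on their values in these data and were then sorted by the share of RPE cells in which they had a UMI and by how unevenly their UMIs were spread over cells, so those values are descriptions and carry no test. The cells came from 2 male C57BL/6J mice, R1 and R2, without any treatment or genetic change, taken at postnatal day 36 according to the protocol and at 4 to 5 weeks according to the sample labels. After the retina had been peeled away, the RPE sheets of the left and right eye were combined, dissociated and sorted for living single cells, so that each mouse is 1 library of a single condition. The assay was droplet-based 3' RNA sequencing, in which a unique molecular identifier (UMI) marks each captured transcript, so that molecules and not amplified copies were counted.

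Photoreceptors detect light in a stack of membrane discs, the outer segment, and the RPE lies directly against these tips. Every day RPE cells engulf shed outer segment tips, and they return retinoid to the photoreceptors through the visual cycle. In rods, light switches on transducin (Gnat1 encodes its alpha subunit), transducin releases the inhibitory gamma subunit (Pde6g) from the phosphodiesterase, and arrestin (Sag) and phosducin (Pdc) limit the response. Rom1 and Prph2 encode partner tetraspanins that shape the rims of the discs, Slc24a1 encodes the sodium/calcium-potassium exchanger of rods, Abca4 encodes a flippase that moves retinal-lipid adducts across disc membranes, and Rpgrip1 encodes a scaffold protein of the connecting cilium.

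The 9 genes lie on 7 chromosomes of GRCm38, and all are annotated as protein-coding. By the GENCODE annotation, Rom1 spans chr19:8927391-8929356 on the minus strand, Slc24a1 chr9:64922861-64951607 on the minus strand and Abca4 chr3:122044443-122180123 on the plus strand. Rpgrip1 spans chr14:52110704-52163546, Sag chr1:87803680-87845158, Pdc chr1:150319417-150333906 and Prph2 chr17:46910459-46924933, all on the plus strand, while Gnat1 at chr9:107674474-107679712 and Pde6g at chr11:120447605-120453500 lie on the minus strand. No other gene of the same strand in the count table overlapped any of them, and no exon of another gene on the same strand lay in the last 1000 bases of any of them, where a 3' assay reads. Promoter sequences, from 250 bases before to 50 bases after the annotated start, were found for 7 of the 9 genes in RefSeq (GRCm38.p6). Gnat1 and Pde6g had no entry. The promoters of the 3 genes found in most RPE cells, Rom1 (chr19:8929307-8929606, minus strand), Slc24a1 (chr9:64951571-64951870, minus strand) and Abca4 (chr3:122044210-122044509, plus strand), are shown with that of Sag (chr1:87803430-87803729, plus strand), a rod gene found in few, so that the letters of both kinds can be read side by side. Capitals mark TAATCC or its reverse complement GGATTA, the core bound by the homeodomain factors Crx and Otx2.
Rom1: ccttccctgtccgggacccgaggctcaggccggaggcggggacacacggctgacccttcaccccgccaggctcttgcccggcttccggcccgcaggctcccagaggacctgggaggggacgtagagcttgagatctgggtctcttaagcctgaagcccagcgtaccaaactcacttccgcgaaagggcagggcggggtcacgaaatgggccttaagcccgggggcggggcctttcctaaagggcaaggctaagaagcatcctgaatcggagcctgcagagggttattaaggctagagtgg
Slc24a1: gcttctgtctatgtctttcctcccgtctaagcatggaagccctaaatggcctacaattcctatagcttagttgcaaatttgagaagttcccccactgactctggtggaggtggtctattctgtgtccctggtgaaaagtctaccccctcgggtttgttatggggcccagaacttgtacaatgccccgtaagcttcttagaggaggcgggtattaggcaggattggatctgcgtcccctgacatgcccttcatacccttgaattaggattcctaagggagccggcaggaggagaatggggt
Abca4: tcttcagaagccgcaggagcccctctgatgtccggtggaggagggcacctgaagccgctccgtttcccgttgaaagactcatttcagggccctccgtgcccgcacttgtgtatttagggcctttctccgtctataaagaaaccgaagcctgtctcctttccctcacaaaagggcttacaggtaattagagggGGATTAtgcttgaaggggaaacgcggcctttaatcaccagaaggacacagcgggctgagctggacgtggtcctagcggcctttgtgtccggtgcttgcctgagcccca
Sag: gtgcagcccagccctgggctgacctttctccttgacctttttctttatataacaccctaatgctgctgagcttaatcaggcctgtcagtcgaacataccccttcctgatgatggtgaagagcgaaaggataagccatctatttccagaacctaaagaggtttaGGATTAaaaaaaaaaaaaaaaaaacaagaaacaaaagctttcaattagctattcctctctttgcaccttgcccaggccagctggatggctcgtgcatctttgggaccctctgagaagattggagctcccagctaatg
Among the 7 promoters, TAATCC on either strand was present in 3, those of Abca4, Rpgrip1 and Sag, beginning at positions -58, -28 and -87 from the start. Of all 32851 RefSeq promoters of this length, 7.06% held it. The palindrome CACGTG, an E-box, was in 0 of the 7 and in 7.15% of all promoters. The motif was thus found on both sides of the division by share of cells, and Rom1 and Slc24a1, the genes with the highest levels, did not have it in this window.

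The matrices held 2844 cells with 26034378 UMIs for R1 and 2994 cells with 29732969 UMIs for R2, and 12 cell barcodes occurred in both. Cells with at least 500 genes and at most 5% mitochondrial UMIs numbered 2782 and 2966. Transthyretin (Ttr), the most prominent RPE transcript here, divided them. In 2723 cells of R1 (97.9%) and 2947 cells of R2 (99.4%) Ttr made up at least 5% of UMIs, and these are called Ttr-rich cells. The other 59 and 19 cells are called Ttr-low cells. No cell lay between 3% and 5%. The highest share among Ttr-low cells was 2.66% in R1, and the lowest among Ttr-rich cells was 5.18% in R1 and 5.14% in R2, with 12 and 4 cells between 4% and 6%. The median Ttr-rich cell had 8751 UMIs in R1 and 8158 in R2, and the median Ttr-low cell 3200 and 3836. All 8 RPE markers (Rpe65, Rgr, Rlbp1, Lrat, Rdh5, Best1, Ttr and Rrh) were found in the Ttr-rich cells, and every Ttr-rich cell had at least 3 of them. So did 58 of 59 and 17 of 19 Ttr-low cells, and the count alone does not tell the classes apart, but the summed level of the 7 markers other than Ttr was 392 and 443 UMIs per 10000 in Ttr-rich cells against 34.7 and 23.4 in Ttr-low cells. By contrast, 11 rod markers, none of them among the 9 genes, summed to 204 UMIs in all Ttr-rich cells of R1 and 81 in R2, where 5 of the 11 were at 0. At least 3 rod markers were present in 2 cells of R1 and 0 of R2, and these 2 are called rod-marked cells.

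Rom1, Slc24a1 and Abca4 were found in most Ttr-rich cells of both mice. Rpgrip1 was found in between 22.5% and 26.1% of cells, and Sag, Gnat1, Pdc, Pde6g and Prph2 in fewer than 2 cells in 100. By the limits used here, 3 genes had a UMI in over 50% of the cells of both mice, 1 lay between, and 5 had a UMI in under 10% of the cells of both. Among all 16479 genes with a UMI in Ttr-rich cells, 6.23% were above 50% in both mice. Since the 9 genes were chosen on such values, nothing is read from that difference.

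**Figure D1:**
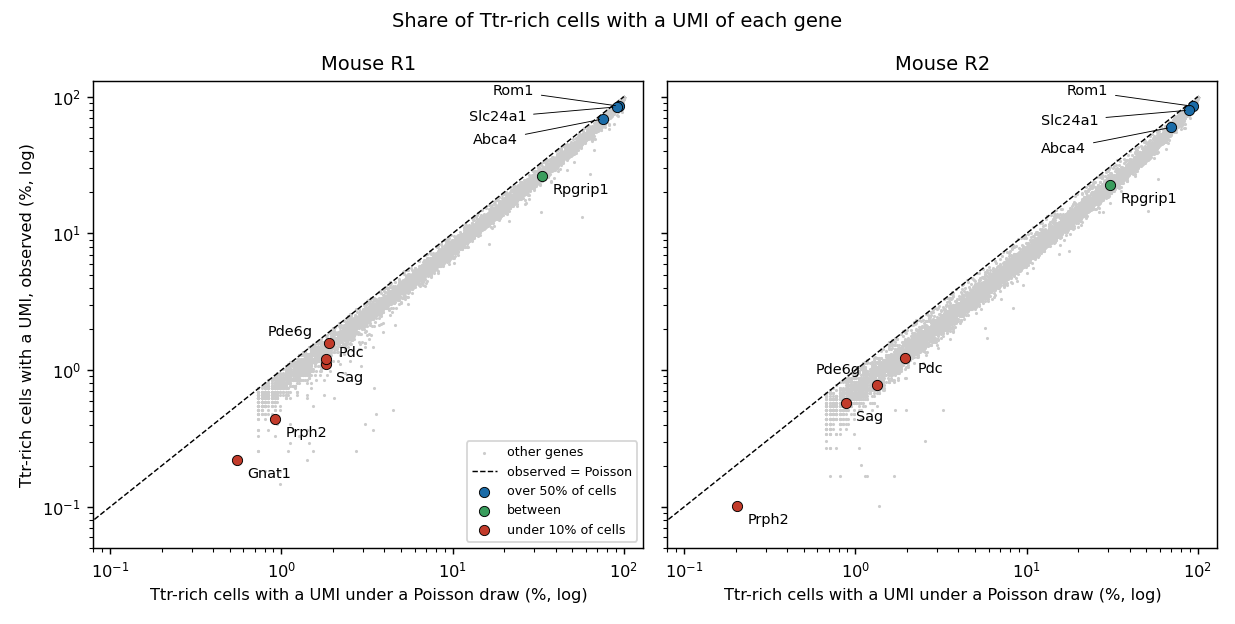
Share of Ttr-rich cells with a UMI of a gene, observed (vertical axis, %, log scale) against the share expected if UMIs fell at a single rate per UMI in every cell (horizontal axis, %, log scale), for R1 and R2. Grey points are genes with at least 20 UMIs and the dashed line is equality. Rom1, Slc24a1 and Abca4 sit at 59.6% or more, Rpgrip1 between 22.5% and 26.1%, and the other genes at 1.58% or less. Gnat1 had 0 UMIs in R2 and has no point there.

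Rom1, the disc-rim tetraspanin, had the highest level of the 9 genes. There were 11640 Rom1 UMIs in Ttr-rich cells of R1 and 15382 in R2, or 4.54 and 5.21 UMIs per 10000. A UMI of Rom1 was found in 85.2% of Ttr-rich cells of R1 and 84.9% of R2, with up to 32 and 43 UMIs in a single cell. A 3' assay counts one end of each transcript, so these levels were not divided by gene length.

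Slc24a1, the rod exchanger, came next with 9430 UMIs in R1 and 10931 in R2, or 3.67 and 3.70 per 10000. It was found in 84.1% and 79.6% of Ttr-rich cells. The mice were closer to each other for Slc24a1 than for the other members found in most cells, with a ratio of R2 to R1 of 1.01 (95% counting interval 0.979 to 1.04).

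Abca4, the flippase, had 4795 UMIs in R1 and 4822 in R2, or 1.87 and 1.63 per 10000. It was found in 68.7% of Ttr-rich cells of R1 and 59.6% of R2, the lowest share inside the 50% limit. When every cell was thinned to 4000 UMIs, which left 2353 cells of R1 and 2221 of R2 and dropped 370 and 726 shallower ones, Abca4 fell below that limit, at 49.0% and 42.8%. Rom1 (77.1% and 78.1%) and Slc24a1 (71.5% and 70.5%) stayed above it, so that 2 in place of 3 genes exceeded 50% at equal depth.

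Rpgrip1, the ciliary scaffold, had 1174 and 1181 UMIs, or 0.458 and 0.400 per 10000, and was found in 26.1% and 22.5% of Ttr-rich cells, the highest shares outside the 50% limit. Most cells with Rpgrip1 had 1 or 2 UMIs of it, but the highest count in a cell was 22 in R1 and 6 in R2. In R1, 428 cells had 1 Rpgrip1 UMI, 188 had 2 and 95 had 3 or more, and in R2 the numbers were 352, 183 and 127. The order Rom1, Slc24a1, Abca4, Rpgrip1 was the same in both mice, and no neighbours in it overlapped between the mice.

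The other 5 genes were found at a level below that of Rpgrip1 by more than an order of magnitude. Pdc, which binds transducin beta-gamma, had 50 UMIs in R1 and 58 in R2 (0.0195 and 0.0196 per 10000), in 1.21% and 1.22% of Ttr-rich cells. Pde6g had 52 and 40 UMIs (0.0203 and 0.0135 per 10000), in 1.58% and 0.780% of cells. Sag, rod arrestin, had 50 and 26 UMIs (0.0195 and 0.00880 per 10000), in 1.10% and 0.577% of cells. These 3 genes overlapped in level between the mice and have no order.

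Prph2, the tetraspanin partner of Rom1, had 25 UMIs in 0.441% of Ttr-rich cells of R1 and 6 UMIs in 0.102% of R2. Its partner Rom1 had 11640 and 15382 UMIs in the same cells. Gnat1, the transducin alpha subunit of rods, had 15 UMIs in 6 cells of R1 and 0 UMIs in R2, where 0 of 2947 cells allows a share of up to 0.102% (3 counts of the total). In Ttr-low cells none of Sag, Gnat1, Pdc and Prph2 had a UMI, and Pde6g had 2 UMIs in 1 cell of R1. With 59 and 19 Ttr-low cells, a count of 0 allows a share of up to 5.08% and 15.8% (3 counts of the total), above the shares of all 5 genes in Ttr-rich cells. A lower share in Ttr-low cells was thus not detectable at this depth for these 5 genes. The background of free RNA was not measured. All intervals and limits cover counting error only.

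The spread of a gene over cells was described by an overdispersion index, the summed squared deviation of its UMIs from the number expected at a single rate per UMI, divided by its total UMIs. A Poisson draw gives 1. In R1, 5 of the 8 members with at least 20 UMIs had an index of 2 or more (Rom1, Rpgrip1, Sag, Pdc and Prph2), as did 16.6% of all genes with at least 20 UMIs. In R2 it was 4 of 7 (Rom1, Slc24a1, Pdc and Pde6g), against 43.2% of all genes. The index was part of how the genes were sorted, so these counts stand as a description.

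For the genes found in most cells, the index was close to that of genes of like level. Rom1 had an index of 2.22 in R1 and 2.47 in R2, where genes within 1.5-fold of its level had a median of 1.95 and 2.21. Slc24a1 had 1.86 and 2.04, against medians of 1.91 and 2.15, and Abca4 had 1.73 and 1.90, against 1.85 and 2.09. Their observed shares lay under the Poisson shares, for Rom1 85.2% against 93.7% in R1, as did the shares of most genes in the plot of observed and expected shares. Rpgrip1 had 2.10 in R1 and 1.87 in R2, against medians of 1.69 and 1.99. The value in R1 includes the single cell with 22 Rpgrip1 UMIs, whose part in it was not computed.

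In R1, Sag and Prph2 had the highest indices of the 9 genes. Sag had an index of 7.22 in R1, which 1.23% of 1221 genes of like level reached, and 1.98 in R2. Prph2 had 6.51 in R1, which 1.12% of 802 genes reached, and 3.0 in R2 from 6 UMIs. Both values in R1 rested on a single cell. Of the 50 Sag UMIs in R1, 36% lay in that cell, as did 48% of the 25 Prph2 UMIs and 46.7% of the 15 Gnat1 UMIs.

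That cell was 1 of the 2 rod-marked cells of R1. It had 13264 UMIs and 9 of the 11 rod markers, among them 13 UMIs of Gngt1, the rod transducin gamma subunit. Of the members, it held 18 UMIs of Sag, 12 of Prph2, 7 of Gnat1, 6 of Pde6g and 5 of Pdc. It also held RPE transcripts, with Ttr at 12% of its UMIs, where the median Ttr-rich cell of R1 had 11.2%. It had 234 UMIs of the RPE opsin Rgr (median 166) and 33 of Rpe65, the isomerase of the visual cycle (median 39). Its Rpe65 count was thus below the median, although its total UMIs were above the median of 8751. Its Rom1 (13 UMIs) and Slc24a1 (17) counts exceeded the 90th percentiles of Ttr-rich cells of R1, 10 and 8, without allowance for depth. They stayed below the highest counts in other cells, 32 and 23. Its Abca4 count (4) equalled the 90th percentile. The second rod-marked cell had 4052 UMIs, Ttr at 9.87%, 3 rod markers and 1 UMI of Prph2, and none of Sag, Gnat1, Pdc or Pde6g. No cell of either mouse was called a doublet by Scrublet at its own threshold, so that the caller is taken not to have worked, and neither rod-marked cell was among the 4% with the highest doublet score. Whether these 2 profiles were doublets was not tested.

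Without the 2 rod-marked cells the index of Sag in R1 was 1.18, that of Prph2 1.5, of Pde6g 1.15, of Pdc 1.68 and of Gnat1 2.50. The level of Sag in R1 went from 0.0195 to 0.0125 per 10000, that of Prph2 from 0.00974 to 0.00468 and that of Gnat1 from 0.00585 to 0.00312. The remaining Sag UMIs were scattered, with 32 in 29 cells and at most 2 in any of them. Gnat1 still had 4 of its remaining 8 UMIs in 1 cell, and Pdc and Prph2 reached 3 in a cell. In R2, which had 0 rod-marked cells, the highest counts in a cell were 5 for Pdc and Pde6g and 4 for Sag and Prph2. Values of Rom1, Slc24a1, Abca4 and Rpgrip1 hardly moved, for Rom1 from 4.54 to 4.53 per 10000 and for Slc24a1 from 3.67 to 3.67.

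**Figure D2:**
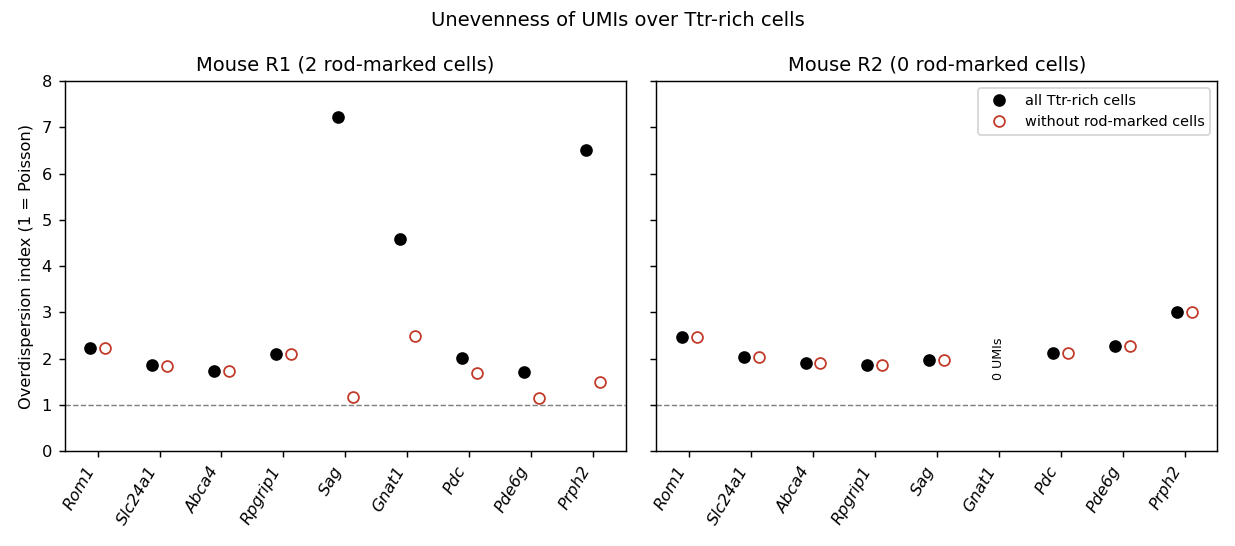
Overdispersion index (vertical axis, linear, 1 under a Poisson draw) of the 9 genes over all Ttr-rich cells (black) and without rod-marked cells (open red), for R1 and R2. In R1 Sag falls from 7.22 to 1.18 and Prph2 from 6.51 to 1.5, whereas the 4 genes at the left stay where they were. R2 had 0 rod-marked cells.

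The few-cell genes were each rare, and few cells held more than 1 of them. The number of such cells expected from the separate shares was not computed, so these counts are a description. At least 1 of Sag, Gnat1, Pdc, Pde6g and Prph2 was found in 115 Ttr-rich cells of R1 (4.22%) and 77 of R2 (2.61%), and 110 and 75 of those cells had only 1 of the 5 genes. All 5 met in a single cell, the rod-marked one. Cells with any of the 5 were deeper, with a median of 11394 UMIs where the other cells of R1 had 8594, and of 13907 where those of R2 had 7971.5. At a single rate per UMI any rare gene is found more often in deeper cells, so a difference in this direction comes with the choice of cells. The median Ttr share of cells with any of the 5 was 11.1% in R1 and 12.6% in R2, against 11.3% and 13.0% in the other cells. Rom1, Slc24a1 and Abca4, each found in most cells, were all found together in 1523 cells of R1 (55.9%) and 1413 of R2 (47.9%). None of the 3 was found in 97 (3.56%) and 115 cells (3.90%). Here too no expected number was computed.

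Between the mice the 4 more abundant genes differed by at most 1.15-fold. Of 7 members with at least 20 UMIs in each mouse, 1, Sag, differed by 1.5-fold or more, against 7.82% of 11230 genes. The ratio of R2 to R1 was 1.15 (1.12 to 1.18) for Rom1, 0.873 (0.839 to 0.909) for Abca4 and 0.874 (0.805 to 0.948) for Rpgrip1, where the median gene had 0.930 with an interquartile range of 0.819 to 1.04. For Sag it was 0.452 (0.270 to 0.740), and 0.705 (0.404 to 1.22) without the rod-marked cells. Pdc was at 1.01 (0.678 to 1.5), so R2 was not low in every few-cell gene. With 1 library per mouse, these intervals cover counting only and say nothing of the spread between animals.

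A list of 48 further genes of phototransduction, the outer segment and cilium, photoreceptor retinoid handling, photoreceptor transcription factors and cones was examined in the same cells. Of its 47 genes with a single row, 2 were found in over 50% of Ttr-rich cells of both mice, 3 lay between and 42 were under 10%. The 42 include 5 genes with 0 UMIs in both mice. Among all 16479 genes with a UMI in Ttr-rich cells, 6.23% were above 50% in both mice. The share of all genes under 10% was not computed, so nothing is read from these counts. The 2 genes of the list above 50% were Gnb1, the transducin beta subunit that other G proteins also use, and Unc119, a lipid-binding chaperone of transducin. Gnb1 had 1.73 and 1.99 UMIs per 10000 in 66.5% and 72.1% of cells, a level that overlapped that of Abca4, and Unc119 had 4.12 and 3.64 per 10000 in 87.1% and 79.2%, which overlapped that of Slc24a1. The 3 between were Cdhr1, a cadherin of the disc base (42.9% and 38.2%), Rgs9, which speeds the shutoff of transducin (24.5% and 19.3%), and Gnat2, the cone transducin alpha subunit (14% and 12.5%). All 16 phototransduction genes had a UMI, but 14 were under 10%, and the transcription factors Crx, Nrl, Nr2e3 and Neurod1 had at most 5 UMIs each in either mouse. The names of the genes between the limits were picked after their values were seen.

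The Ttr-low cells gave a comparison with cells of the same library that are not typical RPE cells. Rom1 and Slc24a1 were lower in them in both mice, Rpgrip1 was not found in them, and Abca4 was present in them at 1.98 and 2.85 UMIs per 10000, against 1.87 and 1.63 in Ttr-rich cells. Among the 59 and 19 Ttr-low cells, at least 3 markers of a group that includes Pax6 and Dkk3 were found in 26 and 10, microglia or macrophage markers in 2 and 1, and fibroblast markers in 3 and 2, and the rest by none of these 3 lists. The 11 rod markers summed to 7 UMIs in R1, with 10 of the 11 at 0, and to 0 UMIs in R2. Per 10000 they went from 0.0795 in Ttr-rich to 0.364 in Ttr-low cells of R1 and from 0.0274 to 0 in R2. All 7 UMIs were of Guca1a, in 6 cells. Summed over their lists, fibroblast markers went from 0.0214 per 10000 in Ttr-rich to 30.9 in Ttr-low cells of R1 and from 0.0812 to 22.0 in R2, microglia or macrophage markers from 1.72 to 10.1 and from 1.24 to 13.0, and Pax6/Dkk3 markers from 0.274 to 30.9 and from 0.153 to 47.7. The lists of choroidal melanocytes (2.72 to 53.4 and 2.02 to 34.4) and of bipolar cells (0.791 to 18.0 and 0.452 to 10.9) also went up, but 1 and 4 of the 6 melanocyte markers and 5 and 4 of the 6 bipolar markers were at 0 in Ttr-low cells of R1 and R2, and 1 and 0 Ttr-low cells were marked as melanocytes and 0 as bipolar cells. The part of these cells in the results was not tested. Ttr itself set the division. The Ttr-rich side had also served to sort the 9 genes, while the Ttr-low side had not.

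Rom1 had 5 UMIs in 3 of 59 Ttr-low cells of R1, which is 0.260 per 10000 (95% interval 0.0844 to 0.606), and 3 UMIs in 2 of 19 cells of R2, 0.329 per 10000 (0.0679 to 0.962). Both lay far below the Ttr-rich levels of 4.54 and 5.21. The log2 fold change of Ttr-low against Ttr-rich cells was -4.82 (SE 0.473) by edgeR's quasi-likelihood test on UMIs summed per mouse, with the mouse as a block and an adjusted p of 3.65e-22. Slc24a1 had 3 UMIs in R1 (0.156 per 10000, 0.0322 to 0.456) and 1 UMI in R2 (0.110 per 10000, 0.00278 to 0.611). Its log2 fold change was -5.46 (SE 0.550) with an adjusted p of 4.52e-21 from the same edgeR fit. Both genes had been sorted on their Ttr-rich values, which form 1 side of this comparison, so the p-values stand as a description. In the shallowest of 3 equal groups of Ttr-rich cells, with a median of 4393 UMIs in R1 and 3481 in R2, Rom1 was found in 65.4% and 66.6% of cells. In Ttr-low cells, with medians of 3200 and 3836 UMIs, it was found in 5.08% and 10.5%. Depth was not equal between these groups, and the shares of Ttr-rich cells had served to sort the gene. These shares are thus a description as well, and the part of depth was not tested.

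Rpgrip1 had 0 UMIs in Ttr-low cells of both mice. Taking a limit of 3 UMIs per library, this puts its level in R1 at least 2.93-fold lower than in Ttr-rich cells, and in R2 at least 1.21-fold lower. The upper end of the exact 95% Poisson interval is wider, and at 0.405 per 10000 in R2 it includes the Ttr-rich level of 0.400. Rpgrip1 passed the filter on low counts through the Ttr-rich cells alone and could only come out lower (edgeR adjusted p = 0.000156, range 1.80e-05 to 0.0102 over the alternatives tried). Reference genes of the RPE fell as well, Rpe65 from 47.6 and 49.2 to 2.81 and 0.659 per 10000, and Rgr from 200 and 237 to 15.8 and 6.69.

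Abca4 had 38 UMIs in 22 of 59 Ttr-low cells of R1, which is 1.98 per 10000 (1.40 to 2.71) against 1.87 in Ttr-rich cells. In R2 it had 26 UMIs in 5 of 19 cells, 2.85 per 10000 (1.86 to 4.18) against 1.63. The log2 fold change was -0.35 (SE 0.358, edgeR adjusted p = 0.697), a sign opposite to the levels per 10000 of either mouse, which gave 0.08 and 0.81. The sign depended on scaling. With TMM the median of all genes tested was at -0.39, and with library totals alone at 0.37, where Abca4 stood at 0.43. Relative to that median Abca4 was at 0.04 and 0.06, and Rom1 at -4.43 under either scaling. Within the Ttr-low cells, Abca4 was in 12 of 26 Pax6/Dkk3-marked cells of R1 (21 UMIs, 2.24 per 10000). In R2 it was in 4 of 10 such cells (25 UMIs, of which 11 in a single cell, 4.06 per 10000). Among cells with none of the marks, Abca4 was in 10 of 28 in R1 (17 UMIs, 2.06 per 10000). In R2 it was in 1 of 6 (1 UMI, 0.481 per 10000). Abca4 had 0 UMIs in the 5 and 3 cells marked as microglia, macrophages or fibroblasts. The exact Poisson intervals there reach 2.26 and 4.21 per 10000, above the Ttr-rich levels, so a lower level was not detectable. All 9 genes were at 0 in these 8 cells, which held 16288 and 8772 UMIs.

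**Figure D3:**
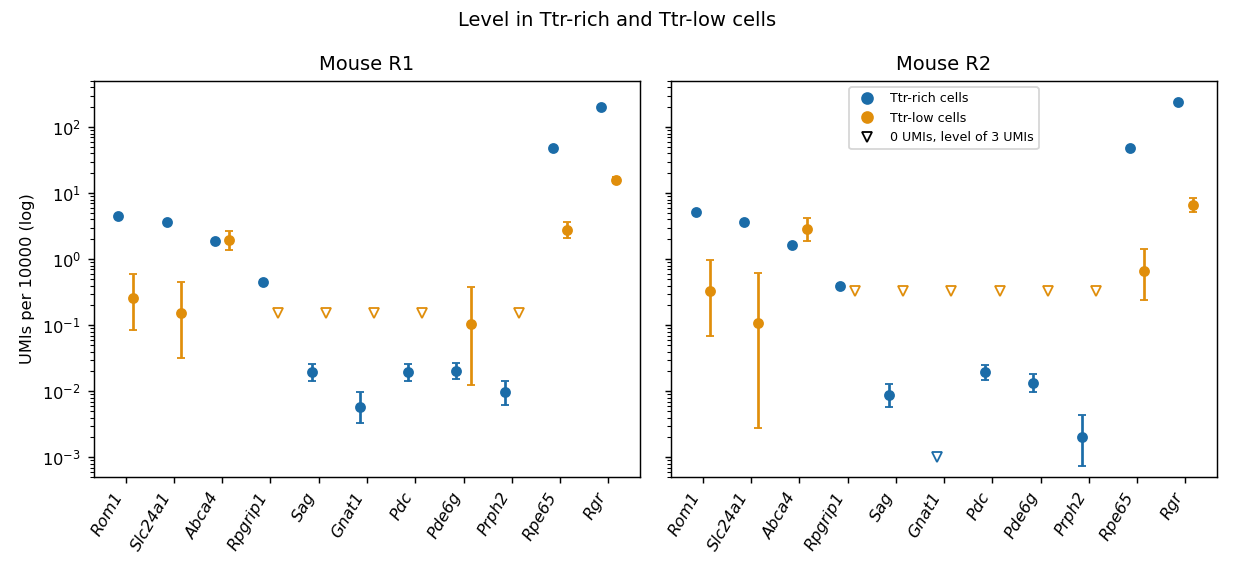
UMIs per 10000 (vertical axis, log scale) of the 9 genes, Rpe65 and Rgr in Ttr-rich (blue) and Ttr-low (orange) cells of R1 and R2, with exact 95% Poisson intervals. An open triangle marks 0 UMIs and stands at the level of 3 UMIs. Rom1 and Slc24a1 are lower in Ttr-low cells together with Rpe65 and Rgr, while Abca4 is at 1.98 and 2.85 there.

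Of all 11577 genes tested, 6.82% were lower and 4.22% higher in Ttr-low cells, and 1279 were called in all at a false discovery rate of 0.05. Of the 7 members tested, 3 were called lower, one of them Rpgrip1. Because the members were selected on their values in Ttr-rich cells, nothing is read from that count. DESeq2 called the same 3 lower among the 4 members for which it gave an adjusted p. Of the called genes 38.2% were higher with TMM, 74.0% with library totals alone and 53.9% with DESeq2. Sag, Pdc and Pde6g had too few UMIs to be called, and Gnat1 and Prph2 did not pass the filter. Of the other photoreceptor genes, 15 of 48 were tested, 3 were lower (Gnb1, log2 fold change -1.86, Cdhr1, -3.56, and Unc119, -1.90) and 1 was higher (Guca1b, a guanylate cyclase activator, 3.64, adjusted p = 0.0338 by edgeR), and these names were picked after the values were seen. The mice differed in size for some of these. As log2 ratios of the levels per 10000, Gnb1 was at -0.35 in R1 and -3.18 in R2, and Unc119 at -1.99 and -0.30. Guca1b rested on 12 UMIs in 7 Ttr-low cells of R1 and 2 UMIs in 2 of R2. The median log2 fold change of the 15 was -2.22, beside -0.39 over all genes.

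A gene was seen in more of the deeper cells, while levels per 10000 UMIs moved less and not all the same way. Ttr-rich cells of each mouse were split into 3 equal groups by total UMIs. Rom1 was found in 65.4%, 91.1% and 99.1% of the shallowest, middle and deepest cells of R1, and in 66.6%, 88.8% and 99.4% of R2. Abca4 went from 45.5% to 88.0% in R1 and from 32.1% to 85.0% in R2, and Rpgrip1 from 15.4% to 37.1% and from 9.16% to 37.7%.

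Among the levels, Slc24a1 was at 3.70, 3.67 and 3.67 from the shallowest to the deepest cells of R1 and at 3.64, 3.76 and 3.69 in R2. Abca4 was at 1.84, 1.91 and 1.85 in R1 and at 1.51, 1.72 and 1.62 in R2. Both genes kept the same level at every depth to within their counting intervals in R1. Rom1 went from 3.72 to 4.14 and 4.99 in R1, but was at 5.14, 4.67 and 5.46 in R2. Rpgrip1 went from 0.552 (0.481 to 0.630) to 0.469 and 0.424 (0.391 to 0.460) in R1, but was at 0.380, 0.421 and 0.394 in R2. For both genes the intervals of the shallowest and deepest cells did not overlap in R1 and overlapped in R2. For Rom1, the log2 fold change of deepest against shallowest cells was 0.25 (SE 0.118, edgeR adjusted p = 0.559), and for Rpgrip1 it was -0.18 (SE 0.172, edgeR adjusted p = 0.876). Among 8 members tested by edgeR with the mouse as a block, 0 were called in either direction, beside 0.108% higher and 0.569% lower of all 11067 genes. At an unadjusted p under 0.05 there was 1 (Rom1), and DESeq2 called 0 of 8. Of the photoreceptor list, 16 of 48 genes were tested and 1 was called, Gnb1, with a log2 fold change of -0.85 and an adjusted p of 1.66e-08 by edgeR. With no replicate block edgeR called 0 of all genes, 427 genes had an unadjusted p under 0.05, and DESeq2 with the block called 7.

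**Figure D4:**
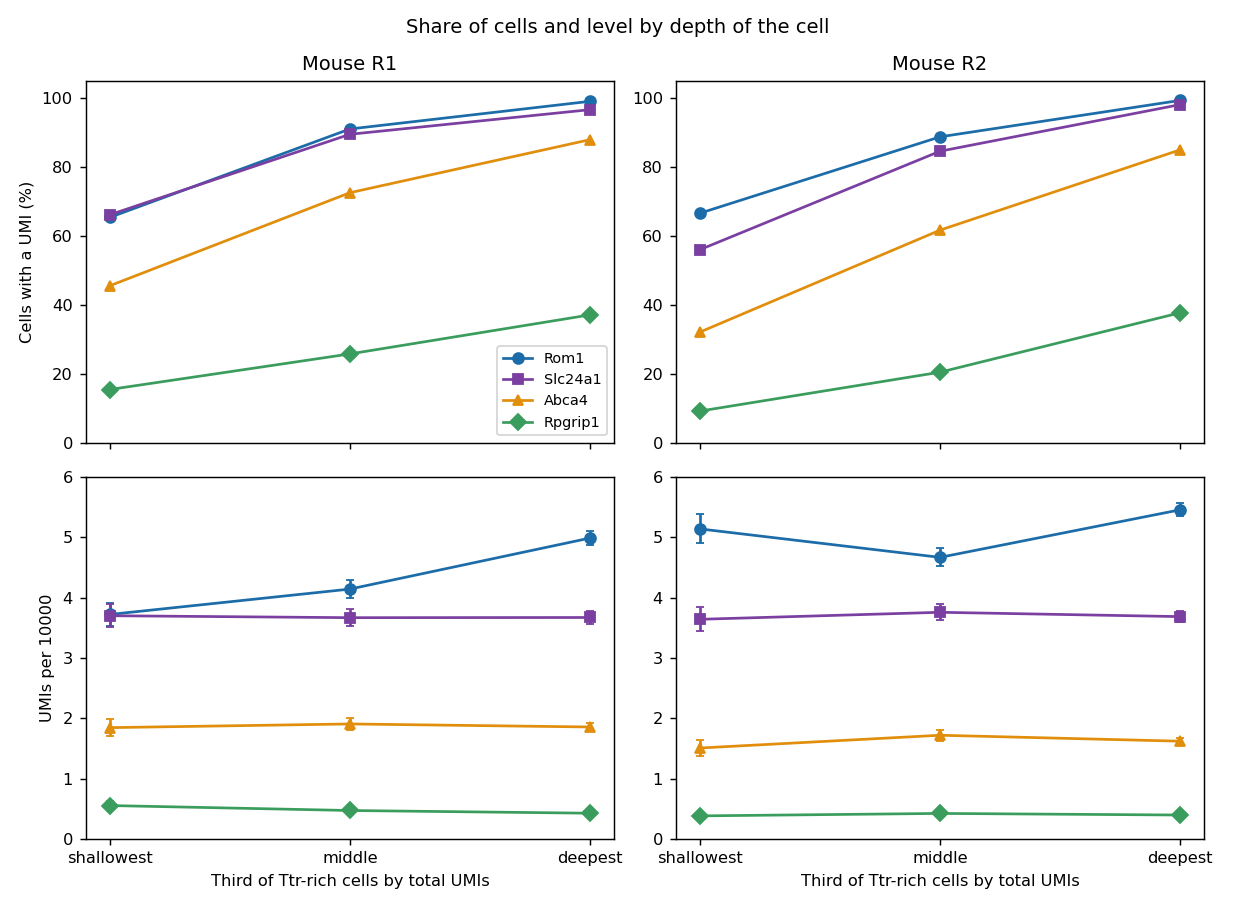
Share of Ttr-rich cells with a UMI (upper panels, %) and UMIs per 10000 (lower panels, with exact 95% Poisson intervals) for Rom1, Slc24a1, Abca4 and Rpgrip1 in 3 equal groups of cells by total UMIs, in R1 and R2. The shares climb with depth for all 4 genes, for Abca4 from 45.5% to 88.0% in R1, while the level of Slc24a1 stays between 3.64 and 3.76.

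No close companion of the 3 widely found genes appeared among Ttr-rich cells. Over the thinned cells and 3305 genes found in over 10% of them in both mice, the highest Pearson correlations with Rom1 were those of Rgr (0.11 in R1 and 0.13 in R2), Pon1 (0.07 and 0.09) and Cd81 (0.07 and 0.07). The leading genes for Slc24a1 were Shisa4, Vamp7 and Epas1, and Ddx17 led for Abca4, all at a correlation of at most 0.07 in either mouse. In counts as sparse as these, such values are no finding. Rom1 and Slc24a1 correlated at 0.07 in R1 and 0.01 in R2.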

How the data were processed

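Single RPE cells of 2 mice were profiled on the 10x Genomics platform. The authors aligned reads to GRCm38 and counted UMIs with Cell Ranger 1.2.0, and deposited raw UMI counts per gene and cell as whole numbers, before removal of ambient RNA, doublets or low-quality cells. From these counts, cells with at least 500 genes and at most 5% mitochondrial UMIs were kept and divided at a Ttr share of 5% of UMIs. Levels are UMIs of a gene per 10000 UMIs of all cells of a class, with exact 95% Poisson intervals, and shares carry exact Clopper-Pearson intervals. For a count of 0, the limit given is that of 3 counts per library, unless the interval is named. Intervals and limits cover counting error only. Expected shares and the index assume 1 rate per UMI for each gene. A cell was marked for a type when at least 3 of its markers had a UMI. Rp1 stood on more than 1 row and was not used.

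UMIs were summed per mouse and class and tested with edgeR 4.0.16 (TMM, filterByExpr, quasi-likelihood, Benjamini-Hochberg adjustment over all genes tested), with the mouse as a block because both sums come from the same animal. Alternatives included DESeq2 1.42.0. The steps were tested on simulated data. Scanpy 1.11.5 gave the Scrublet scores. SoupX and DoubletFinder, which the study applied later, were not used here. The mice are 2 labelled samples. With the mouse as a block, the difference in level between them is removed. The edgeR p-values rest on an estimate of variability shared over genes, and each SE was computed back from the test statistic. Neither measures how well the 2 mice agreed for a single gene. In the Ttr comparison Gnb1, at -0.35 in R1 and -3.18 in R2, had an SE of 0.426. Rom1, at -4.13 and -3.98, had an SE of 0.473. The members, lists and the rule for named genes were chosen with earlier results of these data known. The named genes were the 9 members, Gnb1, genes of the photoreceptor lists found in over 50% of Ttr-rich cells, Rpe65, Rgr and the 3 genes that correlated best with each widely found member. A few genes that this rule names are not reported here.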

Additional observations from a re-analysis of the deposited data

How the results depend on the processing

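The number of genes found in over 50% of Ttr-rich cells of both mice stayed at 3 with other Ttr limits, without the quality filter, without rod-marked cells, without the highest doublet scores and in either mouse alone, and was 2 in thinned cells. Apart from thinning, these settings could hardly change the count. They changed few cells, and the shares nearest to 50% were 59.6% (Abca4 in R2) and 26.1% (Rpgrip1 in R1). Either mouse alone cannot lose a gene that exceeded 50% in both. A Ttr limit of 3% chose the same cells, since 0 cells lay between 3% and 5%. Of 45 levels recomputed in other cells or by another mean, 42 moved by less than the SD between mice. The other 3 were levels of Pdc, whose mice were nearly equal, at 0.0192 per 10000 with a Ttr limit of 8%, 0.0186 without rod-marked cells and 0.0190 as a mean over cells, against 0.0196. The SD of 2 mice is a coarse limit, wide where the mice differ and narrow where they are alike. For Gnat1 it was 0.00413, above the mean of 0.00292, so that no fall could count as a move. For Prph2 it was 0.00545, with a mean of 0.00589. The falls of both genes without rod-marked cells, given below, are therefore among the 42. In the comparison of Ttr-low with Ttr-rich cells, 1279 genes were called, and 2264 with no replicate block. In the comparison by depth 75 were called, 46 without TMM, 7 by DESeq2 and 0 with no replicate block (427 at an unadjusted p under 0.05). The few calls by depth thus depended on treating the sums of a mouse as paired, and also on the scaling and the tool. Leaving out the block changed no call of a member.

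The direction of some members that were not called turned. Abca4 in Ttr-low cells went from -0.35 to 0.43 without TMM and to 0.080 and 0.81 in single mice, as levels per 10000. By depth, Slc24a1 at -0.0035 became 0.0028 without TMM, 0.00026 with DESeq2, 0.017 with every gene tested and 0.0012 without the highest doublet scores, and was at -0.012 and 0.018 in single mice. Also by depth, Pde6g at 0.051 became -0.032 with no replicate block and -0.13 without rod-marked cells, and was at -0.38 and 0.82 in single mice. Of the others, Rpgrip1 was at -0.38 and 0.053 in R1 and R2 alone, Pdc at 1.39 and -0.45, and Prph2 at 1.42 in R1. The cause was not tested. Without rod-marked cells Prph2 went from 0.00589 to 0.00336 per 10000 and Gnat1 from 0.00292 to 0.00156. The calls of Rom1 and Slc24a1 in Ttr-low cells held in all 7 alternatives with a test, all of which use the Ttr-rich values that had sorted the genes. Depth limits the few-cell genes, which rest on at most 58 UMIs in a mouse, and the 59 and 19 Ttr-low cells.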
